A study of Mus musculus with 8 samples.

Results

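The T and NK cell genes described here were 34 genes chosen by name: subunits and signaling partners of the T cell receptor, coreceptors, costimulatory and adhesion receptors, cytotoxic effectors, NK cell receptors, and genes of regulatory T cells and the IL-2 receptor. All 34 were present among the 24421 genes of the count table, and 33 of them were among the 14468 genes that passed the filter on low counts and were tested. The exception was Gzmk, a granzyme, for which 8, 2, 3 and 0 reads were counted in the photoconverted group (tumors 1 to 4) and 8, 0, 3 and 0 in the control group. The list was not chosen by a threshold on these data.

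RNA was sequenced in bulk from 8 tumors of 9-week-old female C57BL/6 mice, each carrying the Kaede transgene, which encodes a protein that turns from green to red fluorescence in violet light. All mice had received 250000 MC38 cells, a mouse colon adenocarcinoma line, under the skin of the flank. On day 10, the tumors of 4 mice (Photoconverted) were lit with 405-nm light for 3 min through the skin, those of the other 4 mice (Control) were not, and all 8 were collected 5 h later. The 2 groups were compared to learn if violet light had an effect of its own on gene expression in the tumors. All tumors therefore shared the transgene, the cell line and the host strain, and each library was a whole tumor with its immune, stromal and malignant cells, not a sorted population.

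Total counts were between 12576615 and 35844417 per tumor. Reads of Rn45s, the precursor of ribosomal RNA, made up at most 9.65% of the counts in 5 libraries, and 21.9%, 35.7% and 23.2% in photoconverted tumor 4, control tumor 2 and control tumor 4, whose libraries were also the smallest. Of 5 epithelial markers, only Krt8 passed the filter, and its level did not exceed 0.977 CPM (counts of a gene divided by the scaled library size, in units of 1000000 counts) in any tumor. All listed genes other than Gzmk were detected in every tumor, the defining markers of T cells (Cd3d, Cd3e, Cd3g) and of NK cells (Ncr1, Klrb1c) included. The lowest count of a tested gene of the list was 3 (Ifng in control tumor 4), the highest 2837 (Gzmb in photoconverted tumor 1), and 20 of the 33 had a mean below 5 CPM, so counting error was not negligible for most of them.

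T cells recognize antigen through the T cell receptor, whose antigen-binding chains sit in a complex with the CD3 chains and the zeta chain, and which signals through the kinases Lck and Zap70 and the adaptor Lat. CD8 T cells and NK cells kill target cells by releasing perforin and granzymes and secrete interferon-γ, whereas regulatory T cells, defined by Foxp3, restrain them and carry the high-affinity receptor for IL-2. In tumors these populations can be a small minority of all cells, so that their transcripts make up a small share of a bulk library. In such libraries, fewer cells of a type and less RNA per cell cannot be told apart.

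The promoters of 3 of the genes are shown as description. Gzmb gave the smallest p of the list. Cd3g and Cd3d, which lie head to head on chromosome 9, differed in how much they varied between tumors, with counting error in both. Each window holds 250 bases before and 50 after the RefSeq start of the gene (mouse build GRCm38.p6), read in the direction of the gene. The windows are chr14:56262285-56262584 (minus strand, Gzmb), chr9:44980382-44980681 (minus strand, Cd3g) and chr9:44981536-44981835 (plus strand, Cd3d). The RefSeq start of Gzmb lies upstream of the start that GENCODE gives (position 56262260, minus strand), so its whole window lies outside the GENCODE gene. Capitals mark matches to short motifs searched on both strands: RUNX (TGTGGT or ACCACA), T-box (AGGTGT or ACACCT), ETS (AGGAAG or CTTCCT) and AP-1 (TGANTCA).
Gzmb: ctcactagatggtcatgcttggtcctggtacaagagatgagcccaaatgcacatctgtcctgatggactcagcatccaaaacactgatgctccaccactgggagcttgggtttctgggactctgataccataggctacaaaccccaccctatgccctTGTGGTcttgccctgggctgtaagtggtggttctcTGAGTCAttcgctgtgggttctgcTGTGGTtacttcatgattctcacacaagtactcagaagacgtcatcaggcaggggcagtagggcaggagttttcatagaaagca
Cd3g: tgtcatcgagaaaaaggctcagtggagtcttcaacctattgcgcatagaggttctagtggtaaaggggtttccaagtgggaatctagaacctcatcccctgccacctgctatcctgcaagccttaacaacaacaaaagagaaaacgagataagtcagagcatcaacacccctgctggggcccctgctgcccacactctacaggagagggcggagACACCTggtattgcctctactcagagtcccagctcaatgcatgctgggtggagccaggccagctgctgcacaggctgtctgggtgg
Cd3d: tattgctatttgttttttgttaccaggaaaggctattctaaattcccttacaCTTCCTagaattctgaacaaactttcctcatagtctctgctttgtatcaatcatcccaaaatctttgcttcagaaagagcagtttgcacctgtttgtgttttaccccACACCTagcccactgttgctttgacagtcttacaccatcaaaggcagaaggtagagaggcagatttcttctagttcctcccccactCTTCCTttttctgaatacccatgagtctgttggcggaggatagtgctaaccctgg
The Gzmb window held 2 RUNX matches and 1 AP-1 match, the Cd3g window 1 T-box match, and the Cd3d window 1 T-box match and 2 ETS matches. Across the list, 24 of 34 genes had a window in the RefSeq table (29 windows, as some genes have several starts). RUNX letters were found in windows of 11 of the 24 genes (41.4% of windows, against 16.8% of all 32851 promoters of the same length), T-box letters in 9 (31.0% against 13.7%), ETS letters in 14 (55.2% against 35.4%) and AP-1 letters in 2 (6.90% against 7.81%). A match describes the letters of the window and is not evidence of binding. The genes without a window were Cd2, Cd6, Il2rb, Klrd1, Cd28, Cd8b1, Cd4, Ikzf2, Icos and Ctsw.

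With edgeR's quasi-likelihood test, none of the 33 T and NK cell genes differed between photoconverted and control tumors at an adjusted p under 0.05, and neither did any of the 14468 genes tested (0% called). At an unadjusted p under 0.05, the count was 1 of 33 (Gzmb), against 2.23% of all genes tested. No gene of the list had photoconverted and control tumors that did not overlap in CPM, against 1.33% of all genes. The estimated log2 fold change was above 0 for 20 of the 33 genes and below 0 for 13, against 46.8% of all genes above 0. The median log2 fold change of the list was 0.06 and that of all genes -0.01, and 30 of the 33 genes lay within 0.5 of 0 on the log2 scale. This count rested on single tumors, since 10 of 33 genes were above 0 without photoconverted tumor 3, 10 without control tumor 4, and 29 without control tumor 3. DESeq2 called 0 of the listed genes and 24 genes in all.

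**Figure D1:**
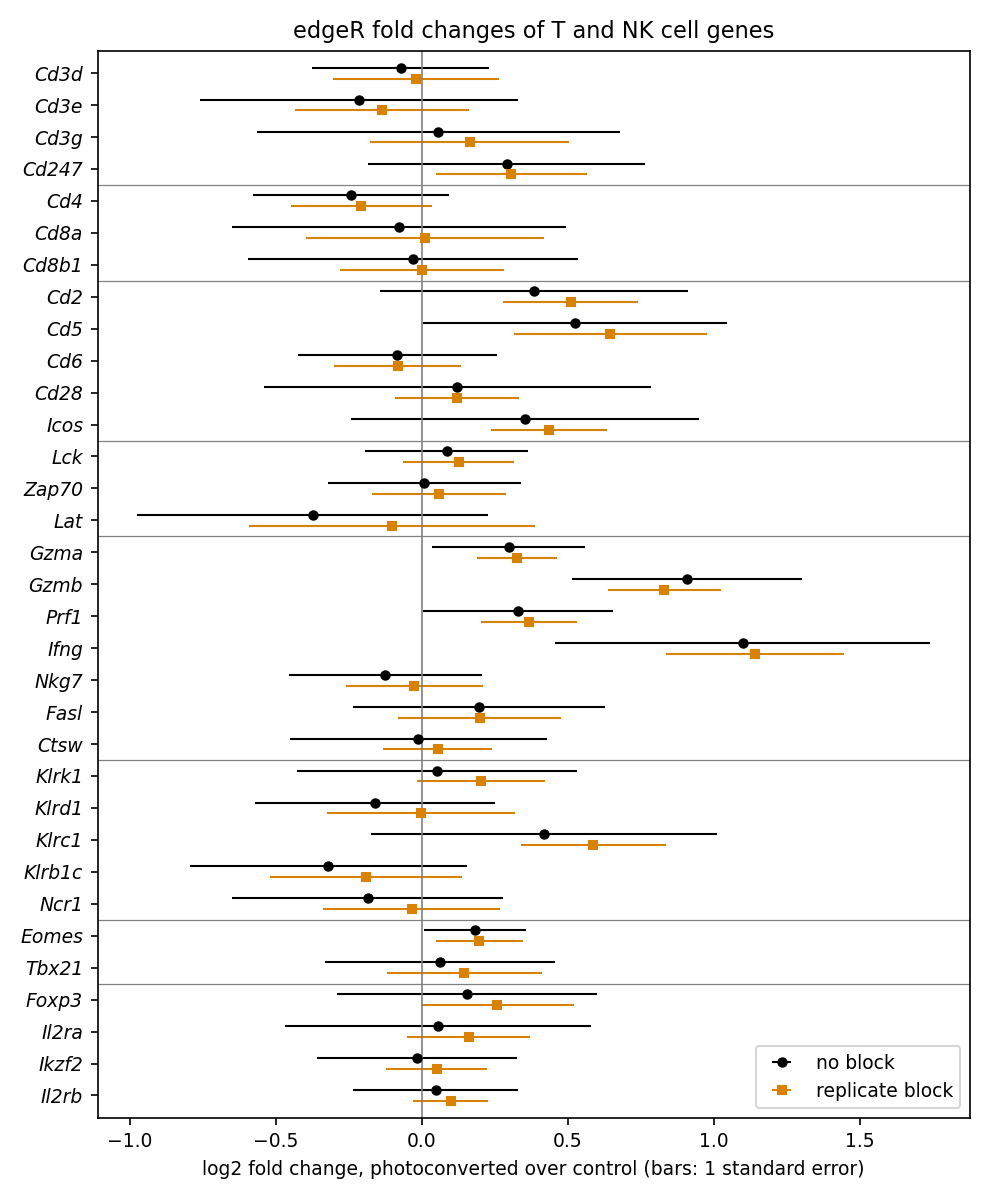
Estimated log2 fold change (photoconverted over control, horizontal axis) of each of the 33 T and NK cell genes tested, with bars of 1 standard error, from edgeR without a block (black circles) and with the replicate number as a block (orange squares). Most bars cross 0, and Ifng and Gzmb lie farthest to the right at 1.10 and 0.91.

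Replicate numbers are shared by the groups, but the labels do not say that they mark pairs. Deviations from the group means correlated between same-numbered tumors with r from 0.107 (number 2) to 0.623 (number 4). Some differently numbered tumors correlated as well (r up to 0.482). The block and the comparison by number therefore rest on an assumed pairing. With the replicate number as a block, edgeR gave an unadjusted p under 0.05 for 4 of the 33 genes (Gzmb, Ifng, Gzma and Klrc1), against 6.01% of all genes tested, and the number with an adjusted p under 0.05 remained 0. Each of the 4 was higher in photoconverted tumors, as were 633 of the 869 genes with such a p among all genes tested. In 7 of the 33 genes (Cd2, Cd28, Icos, Gzma, Gzmb, Ifng and Eomes), each photoconverted tumor was above the control tumor of the same number, against 7.2% of all genes.

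Beyond the 2 groups, the listed genes separated single tumors. Control tumor 4 had the lowest CPM of all 8 tumors for 32 of the 33 genes, against 16.4% of all genes tested, and Eomes was the exception. Photoconverted tumor 4 was the lowest of its group for 30 of the 33 genes, against 40.6% of all genes. Both tumors numbered 4 lay below the other 6 for 25 of the 33, against 13.6% of all genes. The highest level was in control tumor 3 for 12 genes, in photoconverted tumor 3 for 11 and in control tumor 2 for 7 (Cd3d, Cd8a, Cd8b1, Zap70, Lat, Nkg7 and Tbx21). The summed CPM of the 33 genes came to 281, 248, 359 and 155 in the photoconverted group (numbers 1 to 4) and to 203, 232, 320 and 116 in the control group. The sum was thus lowest in the tumors numbered 4 and highest in those numbered 3 in both groups. Because Gzmb alone made up much of the sum, it was also taken without Gzmb, which gave 210, 194, 255 and 129 and 177, 198, 268 and 92.2.

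**Figure D2:**
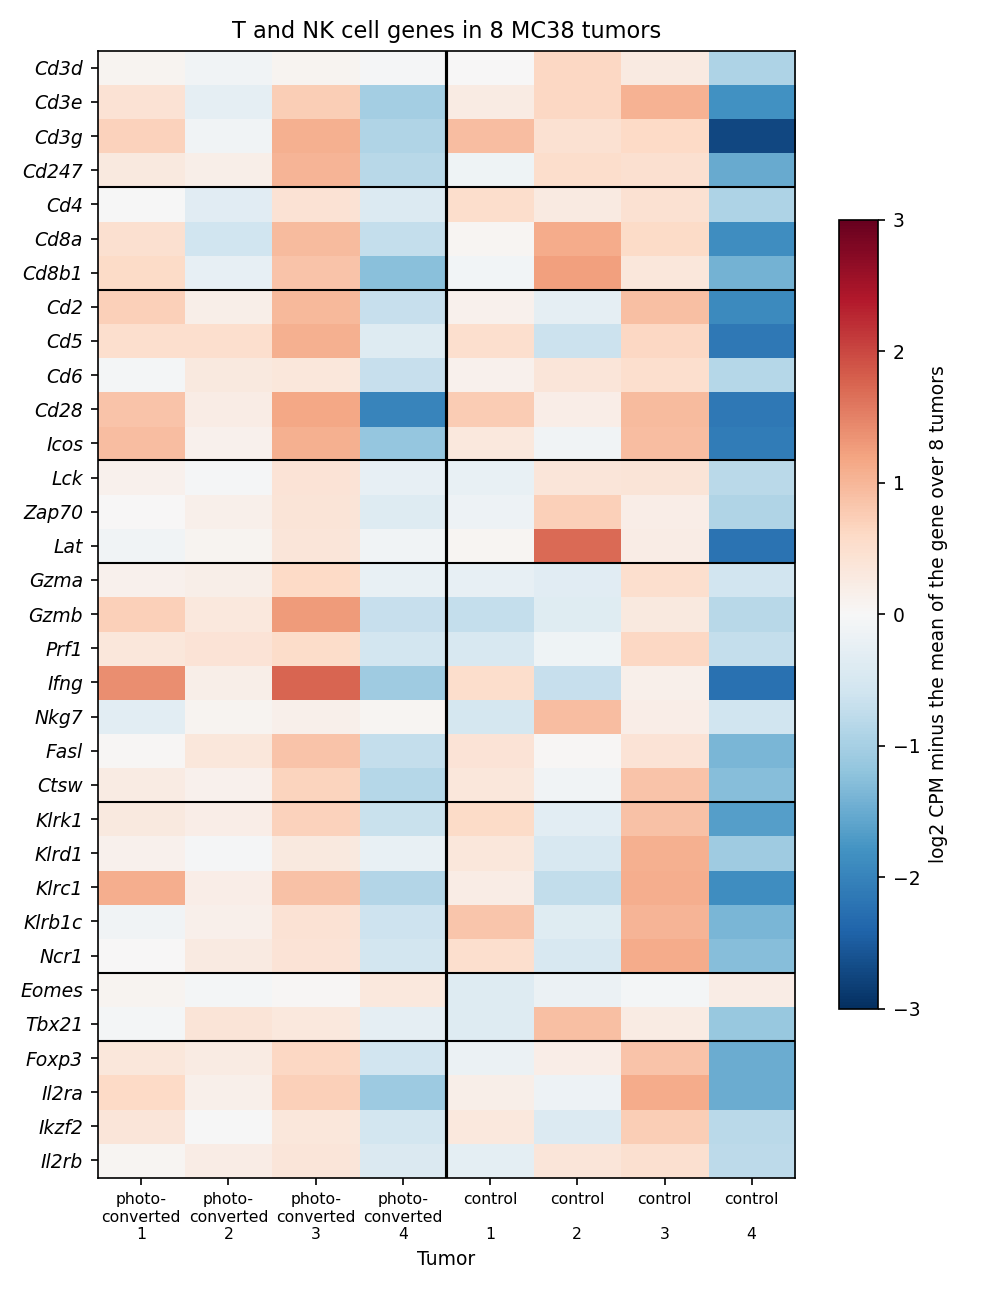
Log2 CPM of each of the 33 T and NK cell genes minus its mean over 8 tumors (color, blue below and red above the mean), by tumor (columns) and by role (blocks between black lines). The column of control tumor 4 is the lowest for 32 genes, and that of photoconverted tumor 4 is the lowest of its group for all but Cd3d, Nkg7 and Eomes.

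Ptprc, which encodes the pan-leukocyte protein CD45, moved in the same direction, with 122, 115, 153 and 71.0 CPM in photoconverted tumors and 152, 91.0, 152 and 50.5 CPM in control tumors. Summed CPM of 5 leukocyte genes was 441, 467, 604 and 320 in photoconverted tumors and 524, 457, 535 and 235 in control tumors, and that of 11 macrophage and monocyte genes was 1184, 1138, 1772 and 769 and 1578, 1341, 1221 and 609. All 3 measures were thus lowest in both tumors numbered 4. Relative to Ptprc counts, control tumor 4 was the lowest of all tumors for 11 of the 33 genes in place of 32, and photoconverted tumor 4 the lowest of its group for 16 in place of 30. The Rn45s share was 21.9% in photoconverted tumor 4, 23.2% in control tumor 4 and 35.7% in control tumor 2. With Rn45s removed before scaling, control tumor 4 remained the lowest for 32 genes. Transcript length moved with the tumors as well: the median deviation of the shortest 25% of genes from their mean over tumors, minus that of the longest 25%, was 0.18 in control tumor 4 and 0.11 in photoconverted tumor 4 on the log2 scale, and between -0.12 and 0.06 in the other 6. The part of library quality in the low levels of these tumors was not tested.

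The 33 genes varied more between tumors of the same group than genes in general, although low counts add to the spread of these genes. The median SD of log2 CPM was 0.50 in the photoconverted group and 0.92 in the control group, against 0.23 and 0.34 over all genes tested. Spread was larger in the control group for 30 of the 33 genes, with Gzmb (0.83 and 0.50) and Ifng (1.19 and 1.04) among the 3 that went the other way. Much of it came from the tumors numbered 4, since the pooled within-group median fell from 0.77 to 0.44 without them, against 0.31 and 0.27 for all genes. The median biological coefficient of variation was 44.0%, against 22.5% for all genes. Cd28 varied most (pooled SD 1.33) and Eomes least (0.21).

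**Figure D3:**
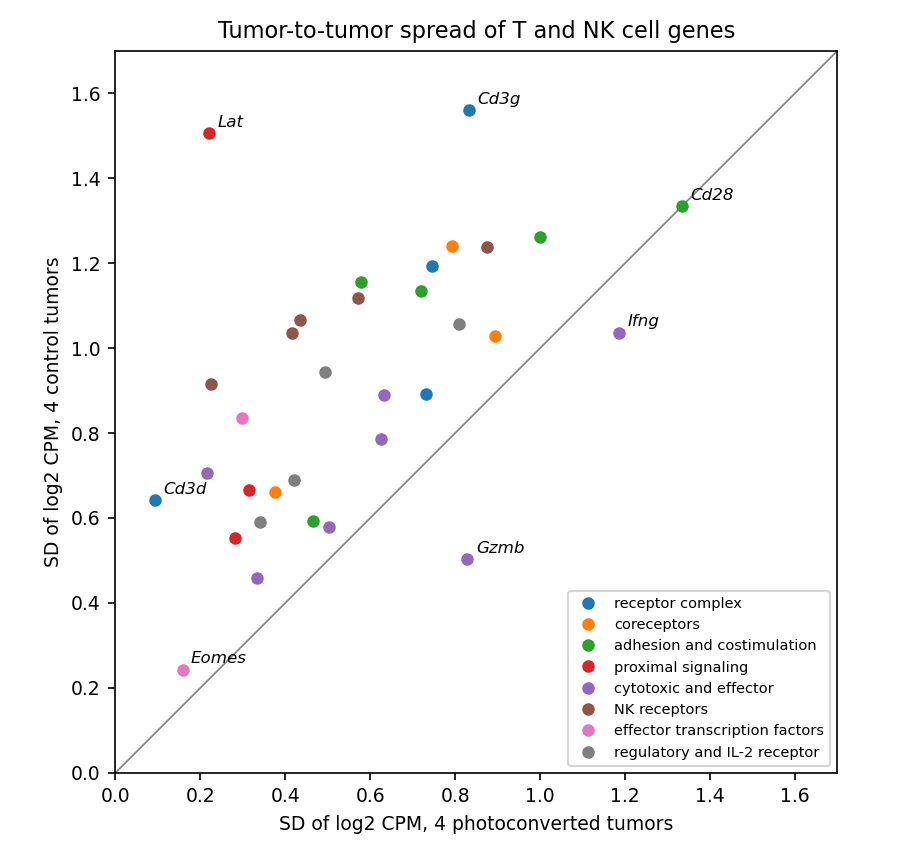
SD of log2 CPM over the 4 photoconverted tumors (horizontal axis) and over the 4 control tumors (vertical axis) for each of the 33 T and NK cell genes, colored by role, with the line of equal spread. Of the 33 points, 30 lie above the line, Gzmb and Ifng lie below it, and Cd3g (1.56) and Lat (1.51) have the largest SD in the control group.

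The CD3 chains anchor the T cell receptor at the membrane and pass on its signal, and their genes gave log2 fold changes between -0.22 and 0.29, with 2 of 4 higher and none past the test. Cd3e was at 2.60, 1.61, 3.23 and 0.957 CPM in photoconverted tumors 1 to 4 and at 2.31, 3.00, 3.98 and 0.549 CPM in control tumors 1 to 4. The groups overlapped over nearly their whole range, with the lowest value of each in tumor 4. The log2 fold change of Cd3e was -0.22 with a standard error of 0.54, so that a moderate difference in either direction was not detectable at this depth and number of tumors. Cd3g gave 3.25, 1.89, 4.22 and 1.09 CPM and 3.85, 2.78, 3.09 and 0.305 CPM, the last from 5 counts. Cd247, the zeta chain, gave 2.55, 2.34, 4.18 and 1.16 CPM and 1.88, 3.00, 2.88 and 0.732 CPM. In both genes the tumor numbered 4 was the lowest of its group and the rest overlapped. Counts of Cd247 are uncertain, since 60.3% of its exonic bases overlap other genes, mostly Pou2f1 on the opposite strand (the strand setting of the counting is not given in the sources used here). Cd3d varied less than its neighbor Cd3g among photoconverted tumors, with 2.98, 2.59, 2.95 and 2.73 CPM, whereas control tumors had 2.83, 4.28, 3.38 and 1.46 CPM. The SD of the log2 CPM of Cd3d was 0.09 in the photoconverted group, against 0.83 for Cd3g, and 0.64 in the control group, against 1.56. Counts of Cd3d in photoconverted tumors were only 119, 82, 75 and 40. Their counting error is not small against an SD of 0.09, so that value is not read as a trait of the gene.

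The coreceptors Cd4 and Cd8 bind MHC class II and class I, respectively, and divide T cells into helper and cytotoxic lineages. All 3 of their genes had estimates slightly below 0, and none passed the test. Cd8a was at 3.73, 1.77, 5.20 and 1.64 CPM in photoconverted tumors and at 2.80, 5.78, 4.02 and 0.732 CPM in control tumors. Cd8b1, the beta chain of the same heterodimer, was at 2.20, 1.23, 2.68 and 0.615 CPM and at 1.40, 3.43, 1.85 and 0.549 CPM. Both chains ordered the tumors almost alike, with control tumor 2 the highest and control tumor 4 the lowest. Cd4, which mouse dendritic cells can also express, was at 3.43, 2.72, 4.65 and 2.60 CPM and at 5.03, 4.17, 4.76 and 1.83 CPM. Its control group held both the highest and the lowest value, and its log2 fold change was -0.24 (SE 0.34, edgeR adjusted p = 0.999, exact permutation p = 0.514).

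Of the adhesion and costimulatory receptors, 4 of 5 had estimates above 0 and none passed the test. Cd5, a receptor that dampens T cell receptor signals, gave 1.90, 1.89, 2.84 and 1.03 CPM in photoconverted tumors and 1.91, 0.856, 2.06 and 0.305 CPM in control tumors, a log2 fold change of 0.52 (SE 0.52, edgeR adjusted p = 0.999). Icos, a costimulator of the CD28 family, gave 8.33, 4.80, 9.30 and 1.98 CPM and 5.45, 4.07, 8.42 and 1.04 CPM. For both genes the ranges of the groups overlapped, and control tumor 4 was lowest. Cd2, an adhesion receptor shared by T and NK cells, had a log2 fold change of 0.39 (SE 0.53, edgeR adjusted p = 0.999). Cd28, whose signal complements that of the receptor, and Cd6, a relative of Cd5, gave 0.12 and -0.08.

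Among the signaling genes, Lat stood out for 1 tumor. Its levels were 1.58, 1.80, 2.21 and 1.57 CPM in photoconverted tumors and 1.77, 5.57, 1.99 and 0.366 CPM in control tumors, so that control tumor 2 was above all others and control tumor 4 below, with 6 counts. Lck, the kinase that first phosphorylates the CD3 chains, was at 7.78, 6.98, 9.49 and 5.95 CPM and at 6.14, 9.10, 9.28 and 4.09 CPM. Zap70, which is recruited to the phosphorylated chains, lay between 2.87 and 4.89 CPM in photoconverted tumors and between 2.01 and 6.21 CPM in control tumors. None of the 3 passed the test, and their log2 fold changes were -0.37, 0.09 and 0.01, respectively.

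The cytotoxic and effector genes held the largest estimates of the list, with 5 of the 7 tested above 0 and log2 fold changes up to 1.10. Gzmb encodes granzyme B, a protease that triggers death of target cells. Its level was 71.0, 53.3, 104 and 26.7 CPM in photoconverted tumors 1 to 4, compared with 26.0, 33.4, 52.4 and 24.2 CPM in control tumors. Photoconverted tumors 1 to 3 were above every control tumor, whereas photoconverted tumor 4 lay within the control range, and each photoconverted tumor was above the control tumor of its number. The log2 fold change was 0.91 (SE 0.39, edgeR adjusted p = 0.999), with an unadjusted edgeR p of 0.0463 and a two-sided exact permutation p of 0.114 over all 70 arrangements, where 0.0286 is the smallest p possible. With the replicate block, the log2 fold change was 0.83 (SE 0.19, edgeR adjusted p = 0.532). Gzmb also held the highest level of the list per length of transcript, with a mean of 34.03 RPKM (CPM per 1000 bases of exon), and none of its 50-base stretches is shared with another gene.

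Some markers of other cell types also reached higher levels in photoconverted than in control tumors. Of 7 neutrophil genes, 6 were tested, 0 passed the adjusted test and 5 had an unadjusted edgeR p under 0.05, each higher in photoconverted tumors, with summed levels between 44.8 and 133 CPM there and between 35.95 and 58.96 CPM in control tumors. S100a9, S100a8 and Cxcr2 had the smallest p of these, with log2 fold changes of 2.53, 2.62 and 2.07. Summed levels of 5 skeletal muscle genes were between 121 and 1031 CPM in photoconverted tumors and between 123 and 318 CPM in control tumors, and those of the 2 of 5 skin and hair genes that were tested between 1.03 and 10.0 CPM and between 1.03 and 1.61 CPM. As for Gzmb, photoconverted tumor 3 was the highest and photoconverted tumor 4 the lowest of its group in all 3 lists. That order was not particular to them, as the sums of macrophage and monocyte, leukocyte and dendritic cell genes had it too. Of the 33 T and NK cell genes, 28 were highest of the group in photoconverted tumor 3 and 30 lowest in photoconverted tumor 4. Among control tumors, Gzmb and the muscle sum were highest in tumor 3, the neutrophil sum in tumor 1 and the skin and hair sum in tumor 2. No marker of these lists was at 0 in all tumors, Ly6g was not analysed here, and the part of these cells in the Gzmb difference was not tested.

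Ifng, the gene of interferon-γ, had the largest estimate, but from few counts. It was at 2.28, 0.979, 2.92 and 0.410 CPM in photoconverted tumors and at 1.26, 0.535, 0.960 and 0.183 CPM in control tumors, the last from 3 counts. Photoconverted tumors 1 and 3 were above all control tumors, and the other 2 lay within the control range. The log2 fold change was 1.10 (SE 0.64, edgeR adjusted p = 0.999, exact permutation p = 0.257), and 1.14 with the replicate block (SE 0.31, edgeR adjusted p = 0.611). In the annotation, 25.9% of the exonic bases of Ifng overlap the uncurated model Gm49751 on the same strand.

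Gzma, a second granzyme, was at 13.3, 13.9, 18.4 and 10.5 CPM in photoconverted tumors and at 10.3, 9.63, 17.2 and 8.24 CPM in control tumors, with overlapping groups and a log2 fold change of 0.30 (SE 0.26, edgeR adjusted p = 0.999, exact permutation p = 0.314). The block gave 0.33 (SE 0.14, edgeR adjusted p = 0.821). Prf1, the pore-forming perforin, had a log2 fold change of 0.33 (SE 0.33, edgeR adjusted p = 0.999, exact permutation p = 0.429) and lay between 12.5 and 27.2 CPM and between 11.2 and 28.2 CPM. Nkg7, a protein of cytotoxic granules, was highest in control tumor 2 with 16.6 CPM, against 5.80 to 10.1 CPM in the other 7 tumors. Fasl, the ligand of the death receptor Fas, and Ctsw, a cathepsin of cytotoxic cells, had log2 fold changes of 0.20 and -0.01.

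**Figure D4:**
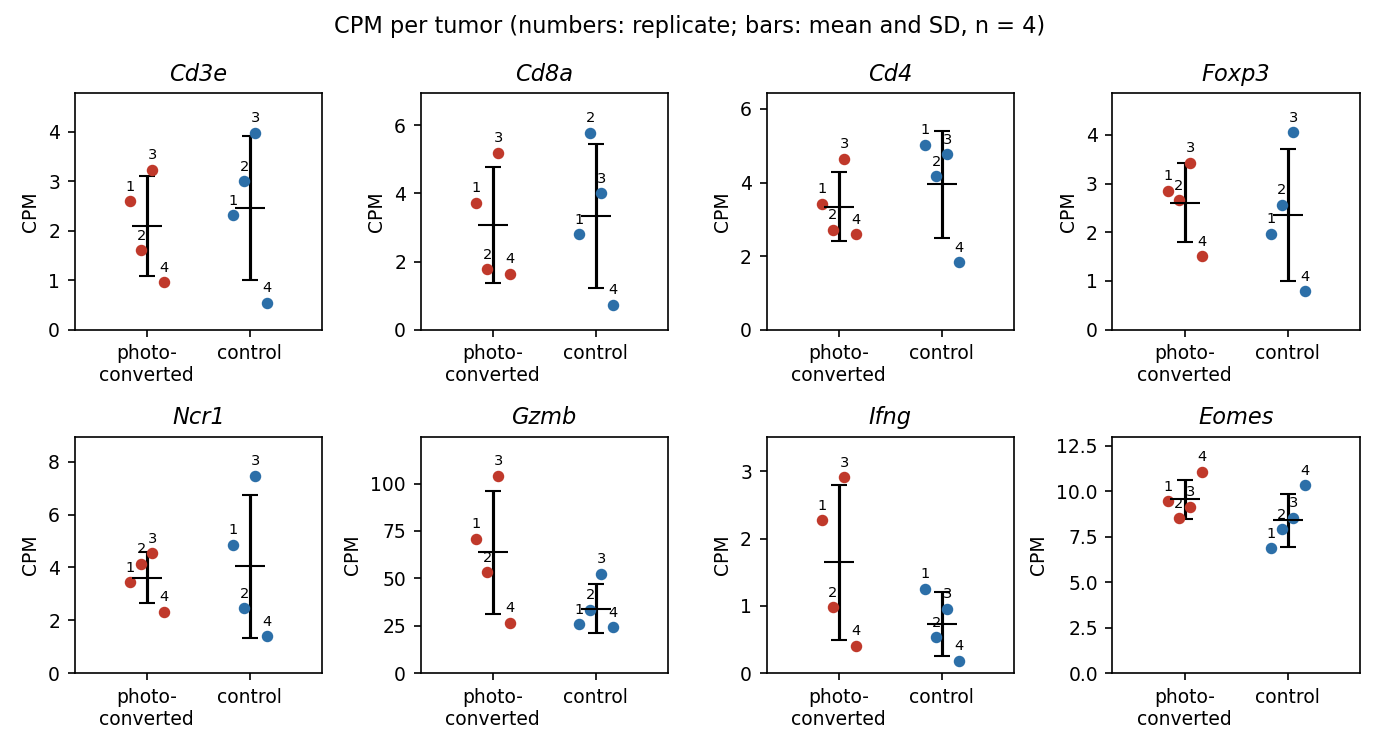
CPM of 8 T and NK cell genes in each of 4 photoconverted (red) and 4 control (blue) tumors, numbered by replicate, with the mean and SD of each group (bars). For Gzmb, photoconverted tumors 1 to 3 (53.3 to 104 CPM) lie above every control tumor (24.2 to 52.4 CPM), whereas the groups overlap more fully for Cd3e, Cd8a, Cd4, Foxp3 and Ncr1, and tumor 4 is the highest of each group for Eomes.

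The NK receptors include activating receptors (Klrk1, Klrb1c and Ncr1), the inhibitory Klrc1 and its partner chain Klrd1, and 2 of these 5 genes had estimates above 0, with none past the test. Klrc1 was at 9.96, 5.31, 8.55 and 2.53 CPM in photoconverted tumors and at 5.40, 2.78, 9.95 and 1.28 CPM in control tumors. The groups overlapped, and the log2 fold change was 0.42 (SE 0.59, edgeR adjusted p = 0.999, exact permutation p = 0.600) without the block and 0.59 (SE 0.25, edgeR adjusted p = 0.821) with it. Counts of Klrc1 are uncertain because 38.6% of its 50-base stretches also occur in Klrc2 or Klrc3. Klrk1, a receptor for stress ligands on target cells, was at 12.9, 12.1, 17.1 and 6.63 CPM and at 15.6, 8.46, 19.3 and 3.36 CPM. Klrb1c, which marks NK cells of this strain, had a log2 fold change of -0.32 (SE 0.47, edgeR adjusted p = 0.999, exact permutation p = 0.571), and Ncr1 and Klrd1 gave -0.19 and -0.16. Control tumor 3 was the highest of all tumors for Klrk1, Klrd1, Klrb1c and Ncr1. Among the 5 tumors whose Rn45s share was under 10%, edgeR gave an unadjusted p under 0.05 for 4 of the 33 genes, against 10.5% of all genes in that fit, so the share of the list was near that of genes in general. These were Gzmb, which was higher, and Klrd1, Klrb1c and Ncr1, which were lower in photoconverted tumors (log2 fold changes of -0.61, -0.75 and -0.61, adjusted p = 0.465, 0.361 and 0.448).

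Eomes, a T-box factor of NK and CD8 effector cells, did not follow the other genes of the list. It was at 9.46, 8.53, 9.14 and 11.1 CPM in photoconverted tumors and at 6.85, 7.92, 8.53 and 10.3 CPM in control tumors, so that the tumors numbered 4, the lowest for most of the list, were the highest for Eomes. Its log2 fold change was 0.18 (SE 0.17, edgeR adjusted p = 0.999, exact permutation p = 0.286). Of its exonic bases, 2.84% overlap the antisense gene Gm33460. Outside the list, Il18rap was also the highest of its group in both tumors numbered 4 (81.5 CPM photoconverted, 82.8 CPM control). Lef1 was the highest of its group in control tumor 4 (6.29 CPM). Most of the other T and NK cell genes tested outside the list were the lowest of their group in control tumor 4. Tbx21, which encodes the related factor T-bet, was lowest in both groups in tumor 4, with 2.12 and 1.16 CPM, and had a log2 fold change of 0.06.

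Regulatory T cell and IL-2 receptor genes had log2 fold changes between -0.02 and 0.16, with 3 of 4 above 0. Their standard errors were 0.45 (Foxp3), 0.52 (Il2ra), 0.34 (Ikzf2) and 0.28 (Il2rb), so these estimates do not show an absence of change. Foxp3 was at 2.85, 2.65, 3.43 and 1.503 CPM in photoconverted tumors and at 1.97, 2.57, 4.05 and 0.793 CPM in control tumors. The control group spanned the photoconverted group. In the annotation, 31.5% of the exonic bases of Foxp3 overlap other genes, among them Flicr on the same strand. Il2rb, the beta chain of the IL-2 receptor on NK and T cells, had the highest level per length of the 4, and was at 35.5, 39.9, 43.8 and 25.5 CPM and at 28.1, 44.3, 47.9 and 19.96 CPM. Il2ra, the chain that gives the receptor high affinity, had a log2 fold change of 0.06, and Ikzf2, which encodes Helios, had -0.02.

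Levels of different genes can be compared only per length of transcript. On the RPKM scale, the means over 8 tumors were highest for Gzmb (34.03), Gzma (12.6), Nkg7 (10.1), Il2rb (8.31) and Prf1 (7.58), and the order of these 5 was the same with the longest transcript in place of the union of exons. Gzma and Nkg7 did not differ beyond their spread over tumors (SD 3.66 and 3.75), and neither did Nkg7, Il2rb and Prf1 (SD 2.36 and 2.68 for the last 2). The receptor complex was at 1.60 (Cd3d), 0.784 (Cd3g), 0.559 (Cd3e) and 0.439 (Cd247), and the lowest means were those of Cd5 (0.325) and Cd6 (0.308). The lengths assume that all annotated exons were transcribed.

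Because all listed genes can move together with the number of lymphocytes, ratios of counts between genes were taken within each tumor (0.5 added to each count), and 8 were tested. The ratio of Gzmb to Cd3e was 27.2, 32.8, 32.0 and 26.9 in photoconverted tumors and 11.2, 10.96, 13.1 and 41.7 in control tumors. The point values of the photoconverted tumors lay close together, above control tumors 1 to 3 and below control tumor 4. The difference of the mean log2 ratios was 0.88 (two-sided exact permutation p = 0.143, 0.533 adjusted over the 8 ratios). Leaving out control tumor 4, the only control tumor not below the photoconverted range, gave 1.34. That choice removes the overlap, so its exact permutation p of 0.0286, the smallest this design allows, is no support. Leaving out any other single tumor gave an exact permutation p between 0.143 and 0.286. The ratio in control tumor 4 rests on 9 counts of Cd3e and 396 of Gzmb, with a raw ratio of 44.0 and an exact 95% interval of 22.9 to 96.9, which covers counting error only and lies above the other 3 control ratios. Gzmb can be made by NK cells as well as T cells, so this is a ratio of transcripts and not a level per T cell.

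The ratio of Gzma to Gzmb was 0.187, 0.260, 0.177 and 0.393 in photoconverted tumors and 0.396, 0.290, 0.329 and 0.342 in control tumors. Photoconverted tumors 1 to 3 were below every control tumor and photoconverted tumor 4 was near the top of the control range. The log2 difference was -0.48 (exact permutation p = 0.171, adjusted p = 0.533). Leaving out photoconverted tumor 4, the only one of its group within the control range, gave -0.72. Its exact permutation p of 0.0286 follows from that choice and is no support. Leaving out any other single tumor gave an exact permutation p between 0.171 and 0.314. Without both tumors numbered 4, the log2 differences were 1.38 (Gzmb to Cd3e) and -0.71 (Gzma to Gzmb), each with an exact permutation p of 0.1, the smallest that 3 tumors against 3 allow. The tumors left out again include the one that made the groups overlap.

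The balance of CD8 to CD4 T cell transcripts, as Cd8a to Cd4, was 1.09, 0.653, 1.12 and 0.636 in photoconverted tumors and 0.558, 1.38, 0.844 and 0.410 in control tumors, overlapping widely (log2 difference 0.23, exact permutation p = 0.657). Foxp3 to Cd4 was 0.833, 0.977, 0.738 and 0.584 in photoconverted tumors and 0.394, 0.620, 0.851 and 0.443 in control tumors (log2 difference 0.48, exact permutation p = 0.200). For this ratio 3 of 4 photoconverted tumors were above the control tumor of their number. The same held for Cd8a to Cd4, Cd8b1 to Cd8a, Gzmb to Cd3e and Prf1 to Cd3e, so it was not particular to Foxp3 to Cd4. Log2 differences of the other ratios were 0.43 for Prf1 to Cd3e (0.85 without control tumor 4), 0.12 for Ncr1 to Cd3e, -0.09 for Cd8b1 to Cd8a and -0.19 for Cd3e to Ptprc, all with overlapping groups and an adjusted exact permutation p of at least 0.533.

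**Figure D5:**
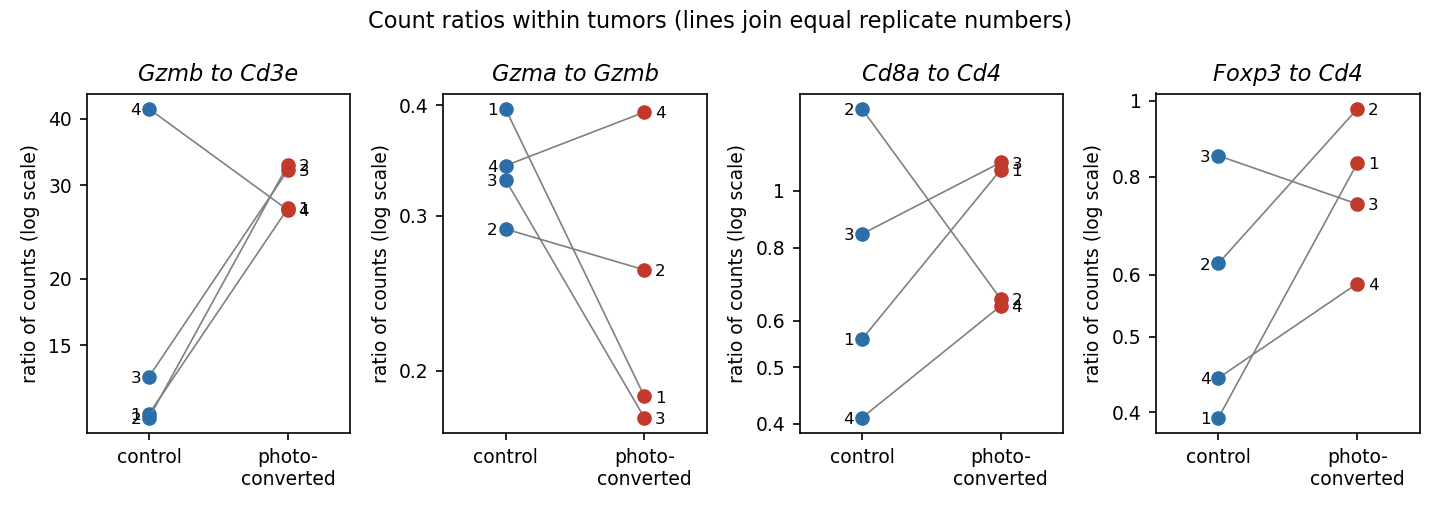
Ratios of counts within each tumor (log scale) for 4 pairs of T and NK cell genes in control (blue) and photoconverted (red) tumors, with lines joining equal replicate numbers. Gzmb to Cd3e lies between 26.9 and 32.8 in photoconverted tumors and between 10.96 and 13.1 in 3 control tumors, and is 41.7 in control tumor 4.

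Over the 8 tumors, the log2 CPM of Cd3e was followed closely by that of Cd8a (Pearson r = 0.945, exact permutation p = 0.000843, adjusted over 8 relations 0.00486, Spearman rho = 0.905, p = 0.00456), Foxp3 (r = 0.936, rho = 0.881) and Cd4 (r = 0.921, rho = 0.762). Without control tumor 4 and photoconverted tumor 4, the 2 farthest from the median of Cd3e, r was 0.8294 for Cd8a (exact permutation p = 0.0431), 0.656 for Foxp3 (p = 0.146) and 0.730 for Cd4 (p = 0.0972), so that the relations with Foxp3 and Cd4 rested in part on those tumors. Those with Ncr1 (r = 0.802, rho = 0.714), Prf1 (r = 0.748, rho = 0.833) and Ptprc (r = 0.875, rho = 0.810) fell to 0.308, 0.281 and 0.292 without them (exact permutation p = 0.581, 0.583 and 0.571). Leaving out these 2 tumors also narrowed the range of Cd3e, so the remaining 6 tumors cannot decide whether these relations held. Gzmb followed Cd3e least among these genes (r = 0.619, exact permutation p = 0.106, rho = 0.619, p = 0.115, and r = 0.211 without the 2 tumors). The log2 Rn45s share gave r = -0.542 (exact permutation p = 0.171, rho = -0.310) and -0.04 without the 2 tumors. Since correlations were computed over no fewer than 6 tumors, none is given within the 5 tumors of low Rn45s share.

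Of 42 other genes of T and NK cells, 38 were in the table and all 38 were tested. None had an edgeR p under 0.05, adjusted or not, and 25 had estimates above 0, with a median log2 fold change of 0.11. Plcg1, the phospholipase downstream of Lat, had the smallest p, with 74.9 ± 7.47 CPM (SD, n = 4) in photoconverted and 87.6 ± 11.7 CPM (SD, n = 4) in control tumors and a log2 fold change of -0.23 (SE 0.13, edgeR adjusted p = 0.999). Cd27, a costimulatory receptor of the TNF receptor family, was next at -0.69 (SE 0.48), followed by Il12rb2, a chain of the IL-12 receptor, at 0.74 (SE 0.53). In control tumor 4, where most T and NK cell genes were at their lowest, Plcg1 was at 91.4 CPM. The level of Plcg1 is therefore not read as a measure of T or NK cells. The constant regions of the receptor chains (Trac, Trbc1, Trbc2 and Trdc) were not analysed here.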

How the data were processed

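RNA-seq counts of 8 tumors, 4 per group, were analysed. The authors deposited raw counts of reads per gene symbol, with no normalization, and a table of normalized signal values, which equal the raw counts divided by size factors of DESeq2. Per the submitters' processing notes, the tools were CASAVA, FastQC, Trim Galore, HISAT2, featureCounts and DESeq2 with build mm10. The annotation and the strand setting are not given in the sources used here. The library kit is named differently in the methods of the paper (TruSeq stranded total RNA) and the labels (SMARTER stranded total RNA).

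Counts were tested with edgeR 4.0.16 in R 4.3.3 (glmQLFit and glmQLFTest on TMM-scaled counts of the 14468 genes kept by filterByExpr, Benjamini-Hochberg adjustment, threshold 0.05). DESeq2 1.42.0 (Wald test) and limma 3.58.1 (on log2 of the normalized values + 1) served as alternatives. CPM used TMM library sizes, and log2 CPM for the spread and correlations a prior count of 2. For single genes, ratios and correlations, exact permutation tests (two-sided) were used. Lengths, coordinates and overlaps came from GENCODE M21 (GRCm38), and shared stretches are 50-base words of its transcripts. Promoters came from RefSeq (GRCm38.p6). The fits of edgeR, DESeq2 and limma to the groups, without a block or covariate, were tested on simulated counts. Fits with the replicate block, with the Rn45s share or without some tumors were not tested in this way.

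Groups and replicate numbers came from sample titles. Nothing in the labels says more of the numbers than that. The main tests were unpaired, and pairing by number was assumed only for the replicate block and the comparisons by number. The correlation of deviations from the group means between same-numbered tumors was 0.597, 0.107, 0.407 and 0.623 for numbers 1 to 4. Differently numbered tumors gave between -0.600 and 0.482, so some of them deviated together as well (0.482 for photoconverted tumor 3 with control tumor 1, above the 0.407 with control tumor 3). No pair of libraries of a group agreed within sampling noise. The members and all gene lists were chosen with earlier results of these data known. Values per tumor are given for the receptor complex, the coreceptors, Foxp3, and in other roles for the gene with the smallest p and that with the highest CPM. Statistics are given for the 10 genes with the smallest p. Other genes are given by range or estimate, except that the values per tumor of Ifng and Gzma were added after their values were seen. Nkg7, Tbx21, Klrd1, Ncr1, Il18rap and Lef1 were also singled out after their values were seen. Alternatives covered test, normalization, filter, replicate block, Rn45s handling, pseudocount, length and leaving out each tumor. The fits without both tumors numbered 4 were added after the data were seen.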

Additional observations from a re-analysis of the deposited data

Results flagged for a closer look

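The log2 ratio of Gzmb to Cd3e in control tumor 4 was 5.38, whereas the nearest other control tumor was at 3.71. The gap was 0.867 of the range of the 4 control tumors, above the critical value of Dixon's test. In all, 82 sets of 4 tumors were examined in this way, of which chance alone would single out about 4.1, and this was the only one. The Cd3e count in that tumor was 9, and the levels of nearly all T and NK cell genes were lowest there. What accounted for the value was not tested.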

How the results depend on the processing

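No T or NK cell gene had an adjusted p under 0.05 in any fit, while calls over all genes ranged from 0 to 42 (24 with DESeq2, 42 among the tumors whose Rn45s share was under 10%, 11 without photoconverted tumor 4 and 12 without both tumors numbered 4). The number of listed genes with an unadjusted p under 0.05 was 1, and 0 with limma, 4 with the replicate block (6.01% of all genes), 4 in the tumors with a low Rn45s share (1 of them higher, 10.5% of all genes), and 0 to 3 when single tumors were left out (0.984% to 5.26% of all genes). The replicate block changed no adjusted call. For ratios, the block was run as sign flips within 4 pairs, whose smallest possible p is above 0.05, so no ratio could cross it. The number of genes above 0 was between 10 and 29 without single tumors and 14 without both tumors numbered 4. In the tumors with a low Rn45s share, the log2 differences of 2 ratios turned to 0.31 (Cd8b1 to Cd8a) and -0.24 (Ncr1 to Cd3e), and that of Cd8b1 to Cd8a was 0.21 without both tumors numbered 4. When single tumors were left out, the differences ranged from -0.039 to 0.54 for Cd8a to Cd4, from -0.21 to 0.070 for Cd8b1 to Cd8a, from -0.46 to 0.059 for Cd3e to Ptprc, from -0.22 to 0.31 for Ncr1 to Cd3e, from 0.70 to 1.34 for Gzmb to Cd3e, from -0.72 to -0.33 for Gzma to Gzmb, from 0.25 to 0.85 for Prf1 to Cd3e and from 0.32 to 0.69 for Foxp3 to Cd4. Likewise the log2 fold change of Klrb1c ranged from -0.61 (without control tumor 4) to 0.0073 (without control tumor 3), and those of Gzmb from 0.57 to 1.20, Ifng from 0.70 to 1.501, Gzma from 0.14 to 0.58, Prf1 from 0.17 to 0.68, Klrc1 from 0.11 to 1.04, Cd2 from 0.07 to 0.87, Cd5 from 0.21 to 0.83, Eomes from 0.09 to 0.30 and Cd4 from -0.48 to -0.10. Correlations with Cd3e without control tumor 4 and photoconverted tumor 4 were 0.730 (Cd4), 0.656 (Foxp3), 0.308 (Ncr1), 0.281 (Prf1) and 0.292 (Ptprc). The median SD of log2 CPM fell from 0.50 to 0.27 without photoconverted tumor 4 and from 0.92 to 0.51 without control tumor 4. Depth limits the genes with few counts most, since 13 of the listed genes had under 15 counts in control tumor 4. The causes of these changes were not tested.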
